A study of Mus musculus with 6 samples.

Results

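Cells hold their cholesterol within narrow limits by making it, taking it up in lipoproteins, storing it as esters and exporting it. The RNA of 29 genes of these routes was followed in primary mouse microglia, the resident macrophages of the brain, with and without contact-free exposure to regulatory T cells (Tregs). The genes were taken by exact symbol from a list of the pathway, and all 29 were found among the 35275 gene rows of the count table. All 29 were also among the 13274 genes abundant enough to be tested. They comprised 5 genes that control the pathway, 18 synthesis enzymes, 1 regulator of uptake, 2 exporters and 3 genes of esterification, transport and oxysterol formation.

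Both groups were primary microglia of the strain given as C57/BL6, with no allele or transgene recorded. The 3 control libraries carry the treatment label Control. The 3 others carry the label Treg co-cultured. Their Tregs had spent 24 hours in permeable inserts over brain slices collected 5 days after tMCAO (transient occlusion of the middle cerebral artery, a stroke model), and the inserts then stood over the microglia for 2 days. No insert or slice exposure is recorded for the controls, so Tregs, slice material and the insert cannot be told apart as the source of a difference. The labels give no animal age and do not say whether replicates are separate animals or cultures, so the p values describe the spread among these libraries only, and that spread may be technical.

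Sterol synthesis starts from acetyl-CoA, passes through mevalonate and farnesyl pyrophosphate to squalene, and ends with a series of sterol conversions. The transcription factors SREBP2 and SREBP1, encoded by Srebf2 and Srebf1, drive these genes when membrane cholesterol is low. SCAP escorts them from the endoplasmic reticulum, INSIG proteins hold SCAP back when sterols are plentiful, and the liver X receptors (LXRs) answer oxysterols by raising export through ABCA1 and ABCG1. In the brain, cholesterol is made locally, and microglia must handle large amounts of it when they clear myelin.

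Promoter windows were searched for known control elements, and those of 5 genes are shown. They set a control gene that rose (Srebf2) beside targets of SREBP2 that were not called (Hmgcs1, Insig1) and LXR targets that fell (Mylip, Abca1). The 5 were picked by these results and do not stand for the list. Of the 18 synthesis enzymes 3 were called higher and 4 lower, and the exporter Abcg1, also raised by LXRs, was not called. The windows are from RefSeq on GRCm38.p6, from 250 bases before to 50 after the transcription start, written in the direction of transcription. Capitals mark exact matches on either strand to TCACNCCAC (a sterol regulatory element), CCAAT (the NF-Y box) and GGGCGG (the Sp1 box), and no matches overlapped one another in these windows.
Srebf2, chr15:82147019-82147318, plus strand: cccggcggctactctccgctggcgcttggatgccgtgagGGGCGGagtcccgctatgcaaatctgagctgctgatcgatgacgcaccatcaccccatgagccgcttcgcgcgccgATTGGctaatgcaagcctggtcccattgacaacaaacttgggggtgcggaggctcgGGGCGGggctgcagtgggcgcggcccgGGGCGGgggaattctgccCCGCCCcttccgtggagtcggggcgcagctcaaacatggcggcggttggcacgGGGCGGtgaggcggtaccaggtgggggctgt
Hmgcs1, chr13:119690101-119690400, plus strand: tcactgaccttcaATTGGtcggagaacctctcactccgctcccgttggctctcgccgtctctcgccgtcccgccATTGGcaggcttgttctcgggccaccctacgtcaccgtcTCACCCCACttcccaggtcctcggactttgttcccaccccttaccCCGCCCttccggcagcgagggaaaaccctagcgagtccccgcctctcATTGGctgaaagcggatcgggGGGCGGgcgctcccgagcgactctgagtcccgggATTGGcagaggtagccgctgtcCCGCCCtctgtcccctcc
Insig1, chr5:28071162-28071461, plus strand: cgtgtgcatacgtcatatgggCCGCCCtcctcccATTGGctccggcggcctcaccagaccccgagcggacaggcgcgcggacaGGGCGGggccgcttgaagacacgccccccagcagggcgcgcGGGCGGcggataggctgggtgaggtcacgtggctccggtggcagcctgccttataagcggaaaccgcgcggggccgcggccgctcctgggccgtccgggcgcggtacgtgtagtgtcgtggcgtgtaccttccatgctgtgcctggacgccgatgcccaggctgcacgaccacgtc
Mylip, chr13:45389492-45389791, plus strand: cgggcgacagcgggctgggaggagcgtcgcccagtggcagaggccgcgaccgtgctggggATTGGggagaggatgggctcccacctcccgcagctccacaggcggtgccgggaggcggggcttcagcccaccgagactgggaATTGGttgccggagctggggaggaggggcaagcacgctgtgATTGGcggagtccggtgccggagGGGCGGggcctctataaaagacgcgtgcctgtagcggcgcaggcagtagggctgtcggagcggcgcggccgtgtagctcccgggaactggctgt
Abca1, chr4:53159846-53160145, minus strand: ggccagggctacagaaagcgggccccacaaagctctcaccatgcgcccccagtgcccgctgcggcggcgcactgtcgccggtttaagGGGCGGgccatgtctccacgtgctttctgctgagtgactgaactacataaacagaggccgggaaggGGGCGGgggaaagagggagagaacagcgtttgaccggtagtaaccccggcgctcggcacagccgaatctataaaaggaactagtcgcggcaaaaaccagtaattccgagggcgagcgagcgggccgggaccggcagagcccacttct
Windows were found for 24 of the 29 genes. The sterol element in these letters was found in 1 of the 24, Hmgcs1, where it began 137 bases before the start, and in 1.44% of the 27025 genes with a window. The CCAAT box was in at least 1 window of 20 of the 24 (83.3%), against 41.1% of all genes with a window and 42.8% of the 9594 of them that were tested here. The GGGCGG box was in 22 of the 24 (91.7%), against 38.2% and 68.4%. An exact match to the LXR element DR4 (AGGTCA repeated in the same direction after any 4 bases) was in none of the 24 and in 0.0148% of all genes. Exact matching misses variants of the sterol and LXR elements, so it cannot show that a gene, Abca1 included, lacks one. These are letter matches in a short window and some genes have several windows, so they describe the sequences only.

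Levels below are CPM, counts relative to the TMM-scaled library total, and n = 3 per group throughout. A gene is called higher or lower when edgeR's quasi-likelihood test across all 13274 genes gave a Benjamini-Hochberg adjusted p below 0.05. The deposited totals ran from 16972758 to 22084542 counts per library. Pearson's r of log2 CPM across genes was 0.9914 to 0.993 within groups and 0.9601 to 0.9648 between them. In bulk RNA, fewer cells of a type and less RNA per cell cannot be told apart. Defining markers of microglia were present, 8 genes summing to 6118 to 6335 CPM in controls and to 5174 to 5408 CPM after co-culture, with 4 of them higher and 4 lower. Transcripts of other brain cells were present at low levels and moved: of 6 oligodendrocyte markers 5 were lower and 1 higher, with Mag from 7.85 ± 0.801 to 2.23 ± 0.459 CPM, while the summed level overlapped between groups (190 to 212 CPM in controls and 198 to 208 CPM after co-culture). Of 6 astrocyte markers 2 were higher and 1 lower, with sums of 29.2 to 34.9 and 32.2 to 39.1 CPM. Of 7 T cell markers 2 were tested, Cd4 being higher and Foxp3 lower, and the list summed to 5.48 to 6.33 CPM in controls and 8.21 to 8.56 CPM after co-culture. Among its defining genes, Trac, Cd3d, Cd3g and Il2ra had at most 3 counts in any library, Trac had 0 in all of them, and Cd3e had 0 in the controls and 10, 2 and 3 after co-culture. The 4 neuronal markers tested and the monocyte marker Ccr2 had adjusted p values of 0.347 to 0.994 in edgeR. Of 5 endothelial and fibroblast markers 4 were tested and 2 were higher, Pecam1 and Dcn. The mitochondrial share of counts was 1.32% to 1.38% in controls and 0.636% to 0.772% after co-culture. The part of these shifts in the results below was not tested. Of the 29 genes, 11 overlap an annotated gene on the opposite strand, and the library kit does not mark strand, so reads from such stretches cannot be told apart.

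The cholesterol genes were called no more often than the transcriptome as a whole, and few reached a large change. Of the 29 genes 13 were called (44.8%), against 50.9% of all genes tested. The 5 called higher were 17.2% of the list, where 25.9% of all genes were higher, and the 8 called lower were 27.6%, where 25% of all genes were lower. The median log2 fold change was -0.035 over the list and -0.01 over all genes. A change of at least 1.5-fold in the fitted value was reached by 2 of the 29 (6.9%), Acat2 and Dhcr7, both lower, and by 23.9% of all genes. Groups did not overlap at 13 of the 29, against 57.2% of all genes. The co-cultured libraries were the higher at 6 and the lower at 7, where 28.6% of all genes did so in each direction. The direction of calls over all genes depends on scaling, with 3432 higher and 3320 lower here, 2731 and 4090 with upper-quartile scaling, and 2774 and 3997 with library totals alone. The members' counts under both of those scalings were 4 higher and 9 lower.

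**Figure D1:**
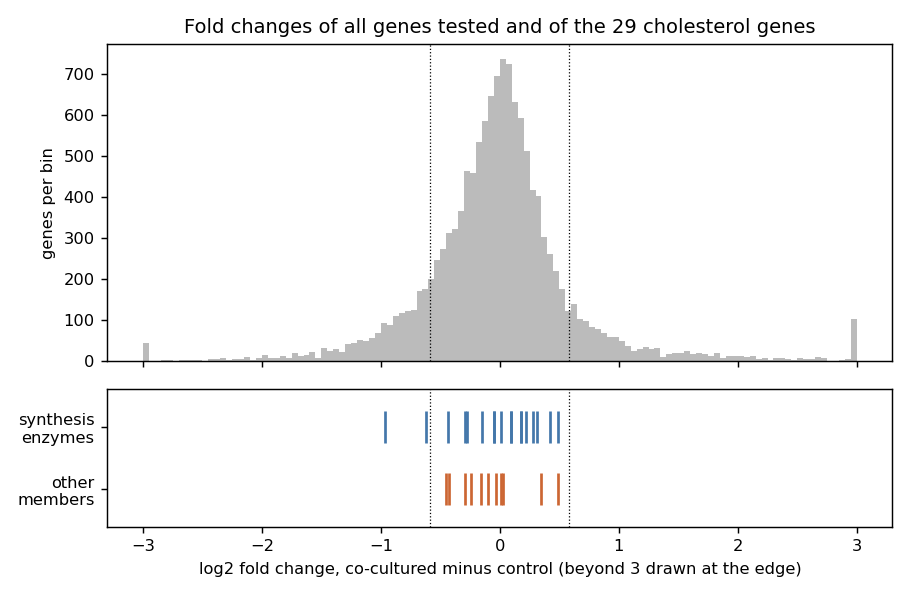
Histogram of the log2 fold changes (co-cultured minus control) of the 13274 genes tested, with the 18 synthesis enzymes and the 11 other cholesterol genes as ticks below. Dotted lines mark a 1.5-fold change, and 2 synthesis enzymes lie beyond them, both on the lower side.

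The control genes of the pathway split. The transcripts of both SREBPs rose, that of their escort Scap fell, and those of the INSIG retention proteins were not called. Srebf2, which encodes the main activator of sterol synthesis, was at 127, 116 and 124 CPM in the control libraries and 183, 168 and 164 CPM in the co-cultured ones. All co-cultured libraries lay above all controls, and Srebf2 rose 1.41-fold (log2 fold change 0.49 ± 0.054 SE, adjusted p = 2.56e-09, edgeR). The gene spans chromosome 15, 82147181 to 82205379, plus strand, of GRCm38. Srebf1, whose product favours fatty acid synthesis, was at 61.3, 58.1 and 63.7 CPM in the control libraries and 80.9, 75.9 and 75.5 CPM in the co-cultured ones. Again the groups did not overlap, and the rise was 1.27-fold (log2 fold change 0.34 ± 0.058 SE, adjusted p = 8.13e-06). Counts here are per gene, so the isoforms of Srebf1 are not separated.

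Scap was at 76.96, 78.9 and 81.2 CPM in the control libraries and 69.7, 66.5 and 64.7 CPM in the co-cultured ones. The lowest control stood above the highest co-cultured library, and Scap fell 1.18-fold (log2 fold change -0.24 ± 0.056 SE, adjusted p = 0.000617). Insig1, itself a target of SREBP2, was at 45.98, 49.1 and 49.8 CPM in the control libraries and 49.3, 53.5 and 44.8 CPM in the co-cultured ones. These values interleaved, and Insig1 was not called (log2 fold change 0.028 ± 0.067 SE, 95% interval -0.11 to 0.16, adjusted p = 0.761). Insig2, the other retention protein, went from 22.4 ± 3.101 to 22.5 ± 0.7001 CPM and was not called (95% interval of the log2 fold change -0.17 to 0.19). Among 7 genes that cleave SREBP or degrade sterol-regulated proteins, 3 were higher and 2 lower, and their log2 fold changes had a median of 0.014. Called genes were 71.4% of these 7, against 50.9% of all genes tested. Mbtps1, the site-1 protease that makes the first cut in SREBP, fell from 97.6 ± 3.43 to 73.6 ± 1.21 CPM (adjusted p = 1.3e-07). The ubiquitin ligase Rnf139 rose from 24.04 ± 0.946 to 34.6 ± 1.24 CPM and Erlin1, a membrane scaffold that binds SCAP, SREBP and INSIG, rose from 22.3 ± 1.76 to 30.7 ± 1.12 CPM.

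**Figure D2:**
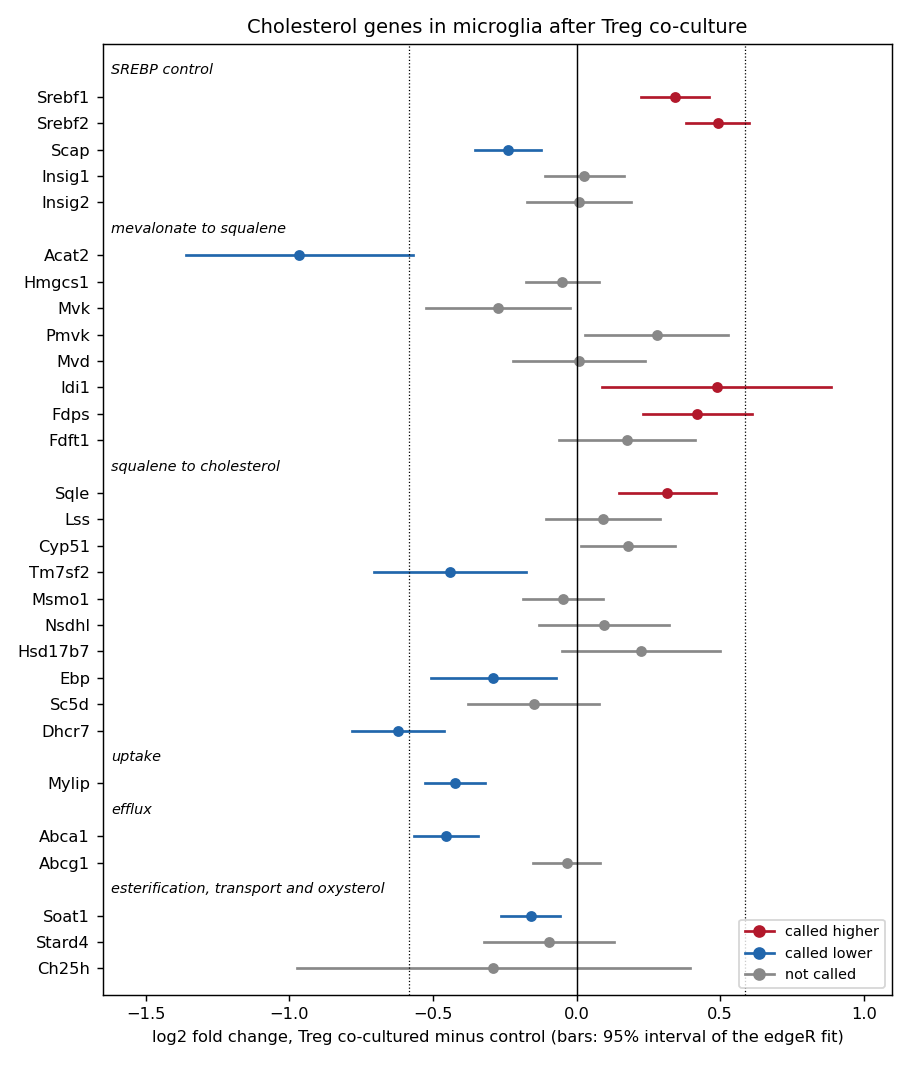
Log2 fold change of each of the 29 genes (points) with the 95% interval of the edgeR fit (bars), grouped by role and coloured by call. Dotted lines mark 1.5-fold. Srebf1 and Srebf2 stand to the right of 0, the synthesis enzymes lie on both sides of 0, and Acat2, Dhcr7, Mylip and Abca1 stand to the left.

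The steps from acetyl-CoA to squalene did not move as a block. Of the 8 enzymes, 2 were called higher, 1 lower and 5 were not called. Their log2 fold changes had a median of 0.092. Called enzymes were 37.5% of the 8, against 50.9% of all genes tested. The first enzyme had the largest fitted fold change of the 29 genes, at one of the lowest levels. Acat2, the cytosolic thiolase that joins a pair of acetyl-CoA units, was at 5.08, 4.79 and 6.51 CPM in the control libraries and 3.55, 1.99 and 2.87 CPM in the co-cultured ones. These rest on 83 to 142 counts per control library and 42 to 76 per co-cultured one. The groups did not overlap, and Acat2 was 1.95-fold lower (log2 fold change -0.97 ± 0.19 SE, adjusted p = 9.75e-05). A close paralog, Acat3, with which reads could be shared, had 0 to 9 counts per library.

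Hmgcs1, HMG-CoA synthase and the only one of the 24 genes with the sterol element shown above, was the most abundant synthesis enzyme per length. It was at 69.97, 66.9 and 63.6 CPM in the control libraries and 68.9, 66.1 and 58.7 CPM in the co-cultured ones. The groups interleaved and Hmgcs1 was not called (log2 fold change -0.049 ± 0.062 SE, 95% interval -0.18 to 0.078, adjusted p = 0.541).

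The mevalonate kinase Mvk and the phosphomevalonate kinase Pmvk were not called. Mvk was at 11.7, 13.1 and 14.2 CPM in the control libraries and 8.89, 10.6 and 12.8 CPM in the co-cultured ones (adjusted p = 0.0632), and its highest co-cultured library lay within the controls. Pmvk was at 9.795, 7.79 and 8.94 CPM in the control libraries and 12.1, 10.2 and 10.1 CPM in the co-cultured ones (adjusted p = 0.0582), with every co-cultured library above every control. Without control replicate 1 both passed the threshold, Mvk with an adjusted p of 0.0343 and Pmvk with 0.0357. Without co-cultured replicate 3 Mvk also passed, with 0.0084. The decarboxylase Mvd went from 12.2 ± 1.55 to 12.3 ± 0.626 CPM and was not called (95% interval of the log2 fold change -0.22 to 0.24). All 9822 bases of Mvd lie within Gm20388 of the opposite strand, which had 0 counts in every library.

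The isoprenoid steps held both called rises of this stretch. Fdps, the synthase of farnesyl pyrophosphate, was at 17.9, 13.96 and 18.2 CPM in the control libraries and 22.7, 22.99 and 21.5 CPM in the co-cultured ones. Control replicate 2 was the lowest, no control reached a co-cultured library, and Fdps rose 1.34-fold (log2 fold change 0.42 ± 0.093 SE, adjusted p = 0.000303). Fdps shares 7512 bases with Gm43738 on the same strand. Idi1, the isomerase that supplies it, was at 2.49, 2.597 and 3.804 CPM in the control libraries and 4.72, 4.26 and 3.55 CPM in the co-cultured ones, on 45 to 101 counts per library. Here the highest control lay above the lowest co-cultured library, and the rise of 1.402-fold was called only narrowly (adjusted p = 0.0372). Its adjusted p became 0.17 without control replicate 1, 0.137 without control replicate 2, 0.154 without co-cultured replicate 1 and 0.0902 without co-cultured replicate 2. Fdft1, squalene synthase, went from 10.1 ± 1.11 to 11.4 ± 0.649 CPM and was not called (adjusted p = 0.218). It overlaps 774 bases of Ctsb on the opposite strand, a gene with 325488 to 514727 counts per library, and without strand the reads of this stretch cannot be told apart.

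**Figure D3:**
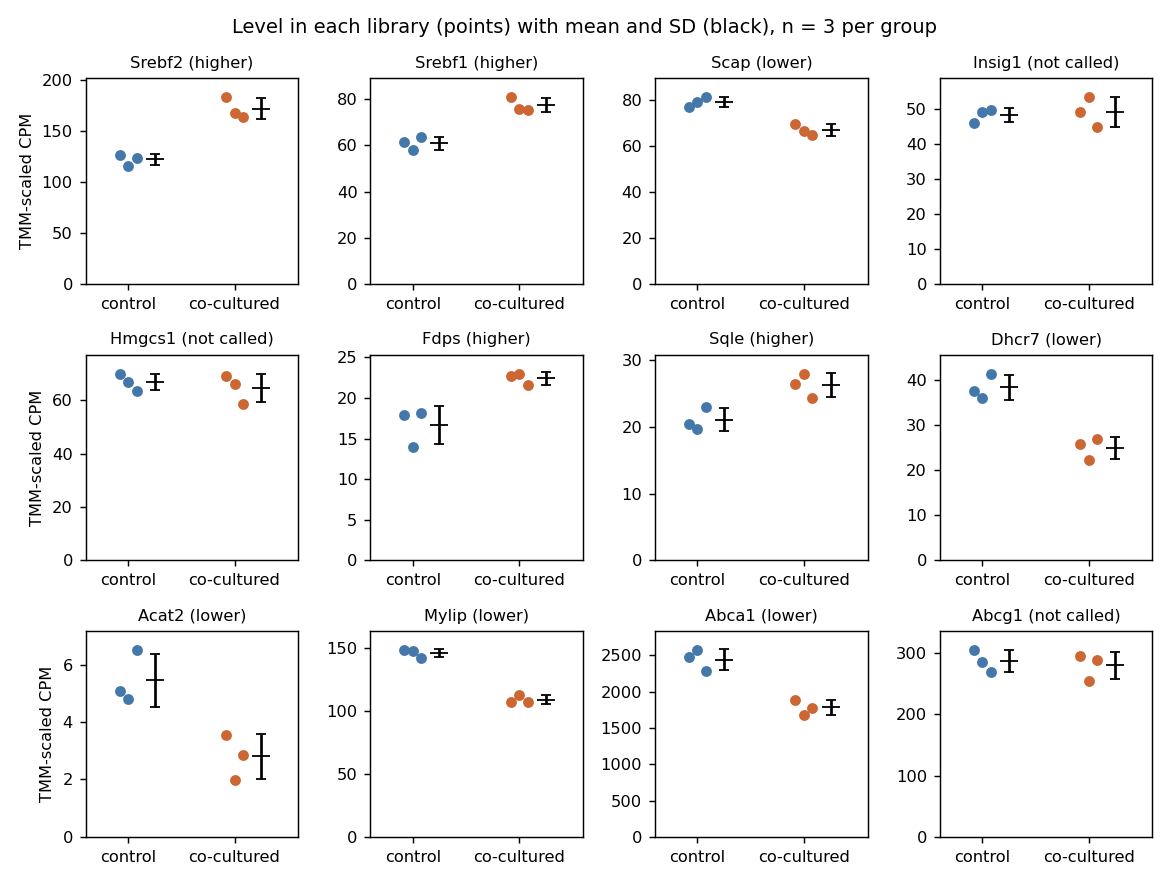
TMM-scaled CPM of 12 of the genes in each library (points, controls left, co-cultured right) with mean and SD in black, each axis starting at 0. Groups are apart for Srebf2, Srebf1, Scap, Fdps, Sqle, Dhcr7, Acat2, Mylip and Abca1, and overlap for Insig1, Hmgcs1 and Abcg1.

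From squalene to cholesterol, the first enzyme rose and the last fell. Of the 10 enzymes, 1 was called higher, 3 lower and 6 were not called. Their log2 fold changes had a median of 0.023. Called enzymes were 40% of the 10, against 50.9% of all genes tested. Sqle, squalene epoxidase and a second control point of the pathway, was at 20.4, 19.7 and 22.96 CPM in the control libraries and 26.4, 27.9 and 24.3 CPM in the co-cultured ones. The groups did not overlap, and Sqle rose 1.25-fold (log2 fold change 0.32 ± 0.082 SE, adjusted p = 0.00168). Dhcr7, which reduces dehydrocholesterol to cholesterol, was at 37.5, 36.1 and 41.4 CPM in the control libraries and 25.8, 22.2 and 26.8 CPM in the co-cultured ones. Every co-cultured library lay below every control, and Dhcr7 fell 1.54-fold (log2 fold change -0.62 ± 0.078 SE, adjusted p = 4.21e-08). The gene spans chromosome 7, 143823145 to 143848410, plus strand.

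The other called enzymes of this stretch were lower. Tm7sf2, a sterol reductase that acts early in the sterol conversions, was at 8.84, 8.54 and 10.5 CPM in the control libraries and 6.45, 7.002 and 7.19 CPM in the co-cultured ones, with no overlap, and fell 1.36-fold (log2 fold change -0.44 ± 0.13 SE, adjusted p = 0.00516). Tm7sf2 overlaps Vps51 on the same strand over 532 bases. Ebp, a sterol isomerase, was at 23.04, 21.3 and 25.1 CPM in the control libraries and 15.7, 18.6 and 22.7 CPM in the co-cultured ones, and co-cultured replicate 3 lay within the controls. Its call (adjusted p = 0.0256) was lost without control replicate 1 (0.0512), without control replicate 3 (0.116), without co-cultured replicate 1 (0.179) and without co-cultured replicate 2 (0.0932).

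The remaining 6 were not called. Lss, the cyclase that forms lanosterol, went from 16.6 ± 1.15 to 17.7 ± 2.14 CPM. Cyp51, the lanosterol demethylase, was at 22.4, 21.4 and 20.1 CPM in the control libraries and 24.7, 25.03 and 22.5 CPM in the co-cultured ones, with every co-cultured library above every control but an adjusted p of 0.0637, which became 0.0367 without co-cultured replicate 3. The methyl-sterol oxidase Msmo1 went from 44.2 ± 2.75 to 42.8 ± 3.09 CPM, and Nsdhl, which works with it, from 11.03 ± 0.712 to 11.8 ± 0.696 CPM. Hsd17b7, a sterol ketone reductase, went from 7.67 ± 1.02 to 8.94 ± 1.16 CPM and Sc5d, a sterol desaturase, from 13.8 ± 1.23 to 12.5 ± 1.802 CPM. The 95% intervals of their log2 fold changes were -0.11 to 0.29 for Lss, -0.19 to 0.093 for Msmo1, -0.13 to 0.32 for Nsdhl, -0.051 to 0.50 for Hsd17b7 and -0.38 to 0.08 for Sc5d.

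Summed over the 18 enzymes, the levels overlapped between groups. The sums were 344, 329 and 354 CPM in the control libraries and 342, 338 and 323 CPM in the co-cultured ones. Their means were 342 ± 12.6 and 334 ± 9.98 CPM. The enzymes up to squalene summed to 136 ± 3.43 and 139 ± 6.199 CPM and the later ones to 206 ± 9.74 and 195 ± 4.31 CPM. A sum in CPM weights long and abundant transcripts most.

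Levels can be compared between genes only per length, for which the deposited FPKM values (counts relative to gene length and library size, computed by the authors) were used. The export and storage genes were far above the synthesis genes. In control libraries Abca1 was at 243 ± 15.4 FPKM, Abcg1 at 81.2 ± 5.46, Soat1 at 73.5 ± 3.098 and Mylip at 48.7 ± 1.25 FPKM. Abcg1 and Soat1 were neighbours in this order whose means differed by about their spread. Srebf2 followed at 25.04 ± 1.22 FPKM, and the synthesis enzymes ran from Hmgcs1 at 21.1 ± 1.101 FPKM to Idi1 at 1.001 ± 0.242 FPKM. Ch25h was the lowest of the 29 at 0.958 ± 0.295 FPKM. After co-culture Abca1 was at 170 ± 8.37 FPKM and still the highest of the list.

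**Figure D4:**
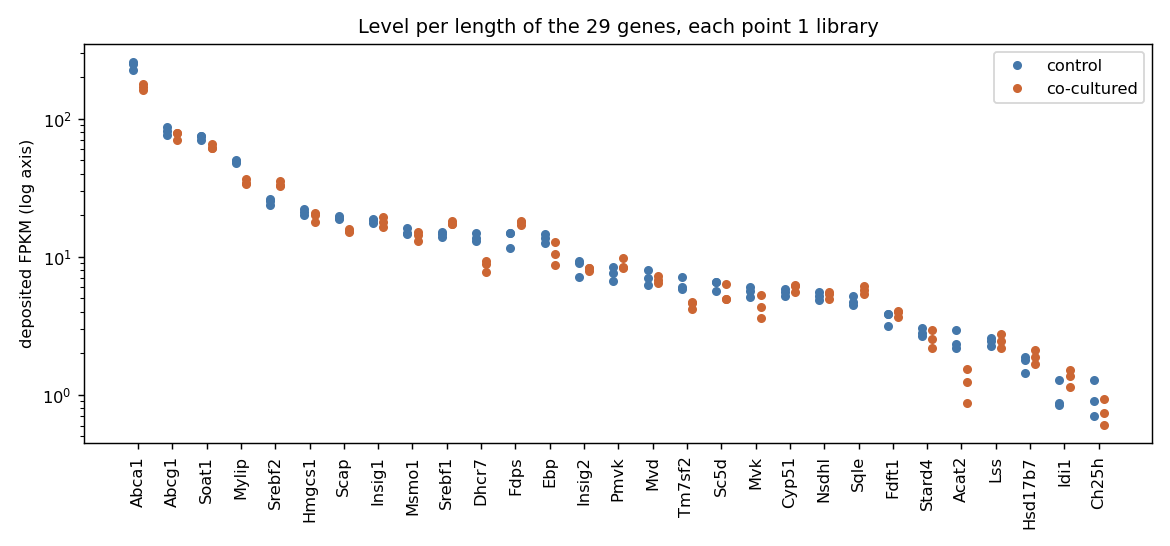
Deposited FPKM of the 29 genes on a log axis, ordered by their mean in controls, with each library as a point (control and co-cultured side by side). Abca1 leads at 243 FPKM in controls and 170 FPKM after co-culture, and Ch25h is last.

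Around lipoprotein uptake, the gene of a ligase that removes receptors fell, and genes of the receptors were called in both directions. Mylip, also known as IDOL, encodes an LXR-induced ubiquitin ligase that sends lipoprotein receptors to lysosomes. It was at 148, 147 and 142 CPM in the control libraries and 107, 113 and 107 CPM in the co-cultured ones. The groups were far apart relative to their spread, and Mylip fell 1.34-fold (log2 fold change -0.42 ± 0.051 SE, adjusted p = 1.99e-08). The gene spans chromosome 13, 45389742 to 45412022, plus strand. Of 10 lipoprotein receptors and their regulators, 9 were tested, with 4 higher and 2 lower, and a median of 0.17 for the log2 fold changes. Called genes were 60% of the 10, against 50.9% of all genes tested. The scavenger receptors Msr1 and Cd36, which take up modified lipoproteins, rose 2.68-fold and 2.04-fold, the latter from 768 ± 13.99 to 1567 ± 115 CPM (adjusted p = 3.26e-17). Called lower were Lrp1, from 6201 ± 775 to 5082 ± 320 CPM (adjusted p = 0.00478), and the scavenger receptor Olr1. Olr1 went from 1.64 ± 0.0867 to 0.174 ± 0.0245 CPM (adjusted p = 2.29e-07), on 3 to 36 counts per library.

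Of the exporters, the one for lipid-poor apolipoproteins fell and the one for mature particles was not called. Abca1, which loads cholesterol onto apolipoproteins such as ApoE, was at 2472, 2572 and 2278 CPM in the control libraries and 1883, 1683 and 1781 CPM in the co-cultured ones. All controls lay above all co-cultured libraries, and Abca1 fell 1.37-fold (log2 fold change -0.45 ± 0.055 SE, adjusted p = 1.97e-08), on 35561 to 54501 counts per library. The gene spans chromosome 4, 53030787 to 53159895, minus strand. Abcg1, which passes cholesterol on to lipoprotein particles, was at 305, 286 and 269 CPM in the control libraries and 295, 255 and 289 CPM in the co-cultured ones. These values interleaved (adjusted p = 0.641, 95% interval of the log2 fold change -0.15 to 0.081).

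The gene of 1 LXR rose steeply, while 8 of the 13 tested genes listed with the LXRs were called lower. Nr1h3 was at 3.67, 4.39 and 4.22 CPM in the control libraries and 15.5, 15.05 and 16.5 CPM in the co-cultured ones, with no overlap, and rose 3.84-fold (log2 fold change 1.94 ± 0.13 SE, adjusted p = 9.85e-15). Nr1h2, the broadly expressed LXR, was at 95.7, 90.7 and 98.6 CPM in the control libraries and 97.6, 102 and 99.5 CPM in the co-cultured ones and was not called (adjusted p = 0.315). Per length Nr1h2 was the more abundant, at 48.6 ± 2.01 FPKM in controls and 48.6 ± 1.33 FPKM after co-culture. The matching values of Nr1h3 were 2.11 ± 0.184 and 7.71 ± 0.375 FPKM. Of 14 genes of LXR signalling and lipoprotein assembly 13 were tested, with 2 higher, Nr1h3 included, 8 lower and 3 not called. Their log2 fold changes had a median of -0.16. The higher were 14.3% and the lower 57.1% of the 14, against 25.9% and 25% of all genes tested. A change of at least 1.5-fold was reached by 15.4% of the 13, against 23.9% of all genes. The LXR targets Pltp, a phospholipid transfer protein, and Arl4c, a small GTPase linked to cholesterol export, fell from 76.3 ± 2.01 to 46.9 ± 0.676 CPM (adjusted p = 3.75e-12) and from 255 ± 4.03 to 190.4 ± 9.94 CPM (adjusted p = 1.4e-08). Apoe, the main lipid-carrying apolipoprotein of the brain, was at 7867, 8671 and 9483 CPM in the control libraries and 6797, 7868 and 7342 CPM in the co-cultured ones, and was called lower at 1.18-fold (adjusted p = 0.00272) although control replicate 1 fell within the co-cultured range.

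Of the 3 list members for storage, transport and oxysterol formation, Soat1 was called lower, and Stard4 and Ch25h were not called. Soat1, which esterifies cholesterol for storage in lipid droplets, was at 614, 616 and 575 CPM in the control libraries and 567, 526 and 523 CPM in the co-cultured ones. The gap between the lowest control and the highest co-cultured library was narrow, and Soat1 fell 1.12-fold (log2 fold change -0.16 ± 0.05 SE, adjusted p = 0.00854). Without control replicate 2 its adjusted p was 0.0584. Stard4, a sterol carrier of the cytosol, went from 14.2 ± 0.935 to 13.3 ± 2.14 CPM and was not called (adjusted p = 0.499). Of 9 genes of lysosomal egress and sterol transfer 8 were tested, with 2 higher and 1 lower (median of the log2 fold changes 0.042). Called genes were 33.3% of the 9, against 50.9% of all genes tested. Stard3, a sterol carrier of late endosomes, rose from 95.4 ± 1.75 to 191 ± 12.3 CPM (adjusted p = 6.62e-17) and Npc2, which hands cholesterol to the lysosomal membrane, from 1174 ± 55.9 to 1419.7 ± 39.5 CPM (adjusted p = 3.24e-05). Npc1, its partner in that membrane, fell from 598 ± 21.4 to 523 ± 6.55 CPM (adjusted p = 0.00117).

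Ch25h makes a hydroxylated cholesterol that holds SREBP back and that macrophages raise in response to interferon. It stood near the floor at 1.18, 0.923 and 1.696 CPM in the control libraries and 0.842, 1.28 and 1.02 CPM in the co-cultured ones, on 16 to 37 counts per library. The groups interleaved and it was not called (adjusted p = 0.501), with a wide 95% interval of the log2 fold change of -0.97 to 0.40. Of 7 other oxysterol genes 3 were tested, with 1 higher and 2 lower (median of the log2 fold changes -0.91). Called genes were 42.9% of the 7, against 50.9% of all genes tested. Cyp27a1, the mitochondrial sterol hydroxylase, fell from 35.96 ± 0.275 to 13.2 ± 1.67 CPM (adjusted p = 6.53e-16), 2.73-fold. Gpr183, a receptor for an oxysterol made from the product of Ch25h, fell from 20.7 ± 2.299 to 11.1 ± 1.604 CPM (adjusted p = 2.26e-08), and Hsd3b7, which inactivates that ligand, rose from 30.3 ± 1.503 to 36.7 ± 1.28 CPM.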

How the data were processed

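Read counts per gene from 6 libraries of primary microglia were compared between 3 controls and 3 co-cultured samples, grouped by their titles. Per the labels' protocols, the SMART-Seq HT kit made the cDNA and Nextera XT the libraries. This amplifies by PCR without molecular identifiers and does not mark strand. The submitters' processing notes list STAR, HTSeq 0.11.2 and build GRCm38. The annotation release and counting options are not stated there or in the labels. The authors deposited raw counts per gene in 2 sheets (35275 and 35186 rows, equal at all 29 members), of which the one keyed by identifier served here. The authors' deposited FPKM values come from the same counts: the implied gene length was constant across libraries, within a relative tolerance of 1e-05, at 12011 of 12011 genes with at least 10 counts in every library. They were used for levels between genes and in alternatives.

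From the counts, edgeR 4.0.16 (R 4.3.3, limma 3.58.1) kept genes by filterByExpr, scaled by TMM and fitted a robust quasi-likelihood model of the group alone, in legacy mode. Tests were two-sided, with Benjamini-Hochberg adjustment over 13274 genes. Fold changes are 2 to the power of the fitted log2 fold change, which need not equal the ratio of mean CPM. SE is the log2 fold change over the root of F. In a simulation of this comparison with 13274 genes, 79.1% of 67 genes changed 1.5-fold, 98.5% of 67 changed 2-fold and 100% of 66 changed 4-fold were recovered, with 12 false calls. Changes were planted only in genes above a minimum mean count, so the shares do not cover genes as low as Ch25h. Far fewer genes were changed than were called in the data, so the 12 false calls do not carry over to them. Counts of same-group pairs differed by a mean chi-square of 3.17 to 9.63 per gene, above sampling noise, so none was a copy.

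The members and gene lists were chosen with earlier results of these data known. Named are all members, fixed genes outside them (Nr1h2, Nr1h3, Apoe and Gpr183) and up to 3 called genes with the smallest adjusted p per companion list. Lrp1 and Olr1, the called falls among the lipoprotein receptors and regulators, are named as well. Some genes that this rule names are not reported here. The marker genes and the genes overlapping members were named after their values were seen. Coordinates are from GENCODE M21 (GRCm38), which may differ from the authors' annotation, and promoter windows from RefSeq. The alternatives were other scalings, filters and tools, a replicate block, the other sheet, the FPKM table, a fold threshold and leaving out each library.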

Additional observations from a re-analysis of the deposited data

How the results depend on the processing

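Of 522 combinations of member and alternative (29 members, 18 alternatives), 481 kept their call status, 33 lost the call and 8 gained it. In 0 did the direction reverse with a call in either fit. Some genes that were not called did change sign. Of 18 alternatives, Insig1 and Mvd kept their sign in 12, Insig2 in 11, Abcg1 and Msmo1 in 16, and Hmgcs1 and Stard4 in 17. Of the 33 losses, 13 are those of the called genes under the test against a 1.5-fold change. Under that test (edgeR's glmTreat) 1500 of all genes were called, and of the members 0 were higher and 0 lower, so also 0 synthesis enzymes in either direction, with 0 members higher and 1 lower at an unadjusted p below 0.05. With limma on log2(FPKM + 0.1), 2 members were higher, Srebf1 and Srebf2, and 0 synthesis enzymes, of which 2 had an unadjusted p below 0.05. With limma on log2(FPKM + 1), 3 members and 1 synthesis enzyme were higher. DESeq2 called 4 members and 2 synthesis enzymes higher and 7 and 3 lower. The cause was not tested. Leaving out each library gave 6028 to 6455 genes called, 4 to 6 members higher and 7 to 9 lower, and 2 to 4 synthesis enzymes higher and 3 to 5 lower. With the replicate number as a block, 6755 genes were called, 6 members higher and 9 lower, the additions being Pmvk and Mvk, and 4 synthesis enzymes higher and 5 lower. Nothing in the labels says that a number pairs samples, and deviations of same-numbered samples correlated at -0.0332, -0.0228 and -0.0266, so no sample correlated best with its own number. Depth limits Idi1, Acat2 and Ch25h most, with 142 counts or fewer in each library.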

Other observations

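Genes that feed or branch from the mevalonate pathway before squalene were called in both directions. Of 9 such genes, 3 were called higher, among them Nus1 and Coq2, and Acat1 was called lower, and the log2 fold changes had a median of 0.22. Nus1, a subunit of the enzyme that makes dolichol for protein glycosylation, rose from 149.8 ± 0.957 to 212 ± 19.4 CPM (adjusted p = 4.49e-09, edgeR), 1.42-fold. Coq2, which joins the isoprenoid tail to the ring of coenzyme Q, rose from 17.8 ± 2.22 to 25.3 ± 0.467 CPM (adjusted p = 1.33e-05). Acat1, the mitochondrial thiolase, went from 26.3 ± 0.363 to 22.97 ± 0.828 CPM (adjusted p = 0.0317). Called members of this list were 44.4% of it, against 50.9% of all genes tested.

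Genes of fatty acid synthesis, which SREBP1 is known to drive, moved both ways while Srebf1 rose. Of 11 tested, 3 were higher and 4 lower, and the log2 fold changes had a median of -0.023. Called genes were 63.6% of the 11, against 50.9% of all genes tested. Fasn, fatty acid synthase, fell from 71.1 ± 2.04 to 45.8 ± 2.84 CPM (adjusted p = 1.39e-10) and the desaturase Scd2 from 43.7 ± 1.54 to 24.3 ± 0.42 CPM (adjusted p = 3.33e-12). The desaturase Fads1 rose from 70.8 ± 3.53 to 84.2 ± 0.442 CPM (adjusted p = 0.00037).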
